A study of Mus musculus with 3 samples.

Results

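The genes of S phase and DNA replication were followed through the developing mouse retina as a list of 40 genes that was drawn up by name, and all 40 were found among the 19946 genes of the 3 single-cell RNA tables. The explant and P0 tables held 40 members each and the P14 table held 34, without *Dscc1*, *Rrm2*, *Uhrf1*, *Exo1*, *Brip1* and *E2f8*. The study asked whether signalling through the somatostatin receptor Sstr2 changes retinal neurogenesis. In the first pool, retinas of wild type CD1 embryos were explanted at E14. They were cultured for 6 days on membranes with 0, 5, 50 or 500 nM of an Sstr2 agonist. There were 2 samples per dose, each called an explant here. The other pools held retinas of littermates at P0 or P14 from Sstr2 mutant mice (C57BL/6NCrl-*Sstr2* em1(IMPC)Mbp, outbred to CD1), with 1 *Sstr2* +/+, 2 +/- and 2 -/- samples per age and no treatment. All cells of a pool were captured together after each sample had been tagged with a lipid-anchored barcode (MULTI-seq), and cell types are those of the deposited annotation. Each pool was thus 1 library, so age, strain, culture and library cannot be told apart when values are set side by side across pools.

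A cell copies its DNA in S phase, after the MCM helicase has been loaded onto origins in G1. Polymerases, the sliding clamp, nucleotide synthesis, histone supply and the checkpoint and repair proteins of the fork are then made together, and many of their genes are activated by E2F transcription factors at the G1 to S transition. In the retina, primary progenitors divide repeatedly, neurogenic progenitors are at or near their last division, and neurons and Müller glia have left the cycle.

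The promoters of 30 of the 40 members were in the RefSeq table (GRCm38.p6), and the 250 bases before the start site were searched on both strands. An E2F word, which is TTTCCCGC, TTTCGCGC, TTTGCCGC or TTTGGCGC, was present in 9 of the 30 members (30.0%), in 2.16% of the 27025 genes of the table, in 10 of 41 other replication genes and in 1 of 35 genes of G2 and M phase. The CCAAT box was present in 70.0% of the members, 37.5% of all genes, 51.2% of other replication genes and 74.3% of G2/M genes. The CHR words TTTGAA and TTCGAA, which are typical of late cell cycle genes, were present in 20.0% of members, 19.6% of all genes and 34.3% of G2/M genes. These matches describe letters in a window and do not show binding.

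Promoters of 6 members whose levels are described below are printed 5′ to 3′ along the gene, with E2F, CCAAT and CHR matches in capitals. They are *Mcm5* (chr8:75109259-75109508, plus strand), *Mcm6* (chr1:128359706-128359955, minus strand), *Cdc6* (chr11:98907901-98908150, plus strand), *Cdca7* (chr2:72475969-72476218, plus strand), *Rrm2* (chr12:24708004-24708253, plus strand) and *E2f8* (chr7:48881597-48881846, minus strand). The first 4 hold an E2F word, and in *Mcm5* and *Mcm6* words on the opposite strands overlap. *Rrm2* and *E2f8* hold a CCAAT box and no E2F word in this window, and *E2f8* also holds a CHR word.
Mcm5: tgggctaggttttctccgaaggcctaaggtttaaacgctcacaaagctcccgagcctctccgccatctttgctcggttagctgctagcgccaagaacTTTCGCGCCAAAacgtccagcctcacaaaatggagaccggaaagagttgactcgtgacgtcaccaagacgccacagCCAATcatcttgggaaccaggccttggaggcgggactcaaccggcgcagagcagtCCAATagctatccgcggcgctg
Mcm6: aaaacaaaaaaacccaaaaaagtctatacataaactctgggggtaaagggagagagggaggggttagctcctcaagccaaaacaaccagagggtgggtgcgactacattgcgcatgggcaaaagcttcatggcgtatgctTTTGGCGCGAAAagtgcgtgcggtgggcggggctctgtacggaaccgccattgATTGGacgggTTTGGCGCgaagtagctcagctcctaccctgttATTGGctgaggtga
Cdc6: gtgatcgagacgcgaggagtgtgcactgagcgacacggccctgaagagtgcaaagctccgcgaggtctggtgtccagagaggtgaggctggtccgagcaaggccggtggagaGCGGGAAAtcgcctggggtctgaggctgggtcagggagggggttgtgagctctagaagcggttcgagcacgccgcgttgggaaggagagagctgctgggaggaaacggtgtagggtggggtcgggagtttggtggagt
Cdca7: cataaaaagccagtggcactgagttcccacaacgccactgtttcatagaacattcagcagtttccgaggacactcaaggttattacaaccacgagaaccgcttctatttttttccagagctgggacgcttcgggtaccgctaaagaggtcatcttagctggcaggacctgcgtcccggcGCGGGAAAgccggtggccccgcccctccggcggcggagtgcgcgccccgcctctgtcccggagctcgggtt
Rrm2: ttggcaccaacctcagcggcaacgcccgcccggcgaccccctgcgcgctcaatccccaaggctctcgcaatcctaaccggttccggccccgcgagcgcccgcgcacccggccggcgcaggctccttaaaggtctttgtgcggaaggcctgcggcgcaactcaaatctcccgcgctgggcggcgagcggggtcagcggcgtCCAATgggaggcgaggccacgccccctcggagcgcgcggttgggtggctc
E2f8: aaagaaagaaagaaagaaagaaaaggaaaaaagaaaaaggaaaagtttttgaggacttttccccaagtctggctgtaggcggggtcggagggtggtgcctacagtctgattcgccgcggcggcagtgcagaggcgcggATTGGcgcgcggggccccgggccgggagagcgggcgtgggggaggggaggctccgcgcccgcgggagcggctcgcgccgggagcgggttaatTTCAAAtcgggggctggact

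The explant pool held 5607 cells, the P0 pool 5706 and the P14 pool 3298, and UMIs per sample ranged from 1281682 to 4237324 in explants, from 8822880 to 10793649 at P0 and from 1266730 to 5886669 at P14. Markers of neurogenic progenitors (*Neurog2*, *Atoh7* and others) summed to 3475–4498 CPM in the neurogenic progenitors of explants and to 846–1135 CPM in their primary progenitors. Markers of microglia reached at most 2.62 CPM in primary progenitors of explants and 57.2 at P0, where astrocyte markers reached 39.1, and they reached 98.7 CPM in amacrine cells of explants and 434 in bipolar cells of P14. In P0 amacrine cells 6 progenitor markers, of which *Pax6* is also an amacrine gene, summed to 1558–1798 CPM and the amacrine markers to 1276–1776. Pools shared 4 to 9 cell barcodes. Some samples held levels that could not be read from their labels. *Sstr2* in neurogenic progenitors at P0 was 112 CPM in the wild type, 189 and 248 in the heterozygotes and 294 and 375 in the retinas labelled knockout, so the level does not check the genotype, and the deleted part and its place relative to the 3′ tag are not given in the sources used here. The study also reported more *Sstr2* mRNA in neurogenic progenitors of mutants at this age. It proposed that the receptor may hold back transcription of its own gene, which was not tested here. The explants also differed in sex-linked and lens genes. In primary progenitors the Y-linked *Eif2s3y* was at 38.4 and 51.9 CPM in the 0 nM explants and at 1.08 and 0 at 500 nM, so sex makeup and dose cannot be told apart, and the lens gene *Cryaa* was at 1739 CPM in 500 nM explant 2 and below 22 in the other 7.

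At P0 the S phase genes were highest in primary progenitors, lower in neurogenic progenitors and photoreceptors, and lowest in retinal ganglion cells (RGCs), whose range overlapped that of P14 cones, summed there over 34 genes. Their summed level, as UMIs per 1000000 UMIs of a cell type in a sample (CPM), was 4602–5240 in primary progenitors at P0, 2973–3932 in neurogenic progenitors, 1650–2616 in photoreceptors, 774–976 in amacrine cells and 444–606 in RGCs. At P14 the 34 measured members summed to 420–471 CPM in rods, 457–582 in cones, 440–519 in bipolar cells, 328–472 in amacrine cells and 358–459 in Müller glia. The 5 P14 types overlapped in their ranges, while progenitors, photoreceptors and amacrine cells at P0 each stood apart from the next, although photoreceptors and amacrine cells overlapped once the top 5% of cells by Scrublet doublet score were left out. Cell types were defined from clusters of the same genes, so these differences are descriptions and were not tested.

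**Figure D1:**
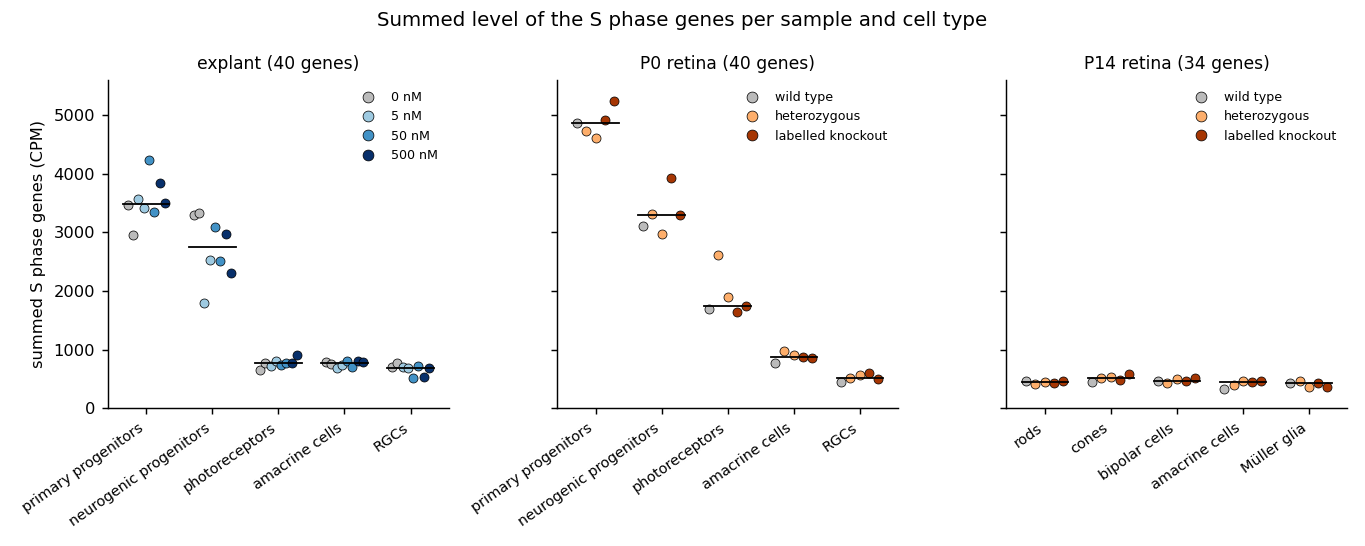
Summed level of the S phase genes (CPM) in every sample of each cell type in explants, P0 and P14 retinas; points are samples coloured by dose or genotype and lines are medians. Primary progenitors at P0 sit at 4602–5240 CPM and the P14 types at 328–582 CPM.

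In explants the primary progenitors summed to 2950–4241 CPM, the neurogenic progenitors to 1796–3321 and the photoreceptors to 659–910. The progenitor types therefore overlapped in explants and did not at P0. Counted per cell after thinning each cell to 3000 UMIs, 95.0% of P0 primary progenitors carried at least 3 UMIs of the members, against 68.7% of neurogenic progenitors, 45.8% of photoreceptors, 35.4% of amacrine cells and 27.1% of RGCs. Without thinning the shares were 98.8, 84.6, 64.0, 84.8 and 100% in the same order, with median depths of 8759, 6775, 4535, 7332 and 24853 UMIs per cell. RGCs have left the cycle, and the parts of free RNA and low basal expression in their share were not tested. Their cells were the deepest, so the share is not taken as a background for the shallower types.

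Photoreceptors were the only P0 neurons above 1000 CPM, and the heterozygous retina 1 was highest at 2616. Their G2/M genes summed to 1023–2448 CPM. When the 5% of cells with the highest doublet score (Scrublet) were left out, their S phase genes were at 879–1541 CPM, below the range with all cells and overlapping amacrine cells at 743–902 CPM. Photoreceptors also carried progenitor markers, and *Lhx2*, *Fgf15*, *Ccnd1*, *Sox2*, *Hes1* and *Pax6* summed to 1285–2148 CPM in them at P0 and to 276–644 in photoreceptors of explants. The part of these markers in the S phase level was not tested.

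By role, the members differed in how far apart dividing and mature cells were. Levels were summed over the genes of a role and averaged over samples. The 9 licensing and helicase genes, which load, start or regulate the replicative helicase, were at 1031 CPM in P0 primary progenitors and 30.7 in P14 rods. Polymerase, clamp and fork genes were at 749 CPM (8 genes) and 161 (7 genes), histone and chromatin genes at 1448 (8) and 124 (7), and checkpoint and repair genes at 1098 (9) and 88.5 (7). The nucleotide supply genes were at 394 CPM (3) and 14.9 (2), with *Rrm2* in the P0 sum only. Where the gene counts of a pair differ, the 2 sums are not over the same genes and their distance is overstated. Members of the same role differed in rods. Among licensing and helicase genes *Gins2* had 89 UMIs over all rods and *Cdc6* 2, and among fork genes *Pold3* had 349 and *Prim1* 8.

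The ratio of P0 primary progenitors to P14 rods spanned a wide range, with a median of 15.8, and 20 of the 34 members had a ratio over 10. *Mcm5*, a helicase subunit, had 2197 UMIs in the progenitors and 3 in all 2271 rods. *Dtl*, which brings replication licensing factors to degradation, had 2211 and 3 UMIs, *Cdc6*, which loads the helicase, had 683 and 2, and the chromatin factor *Cdca7* had 2767 and 3. *Ung*, the uracil DNA glycosylase that removes uracil from DNA, had no UMI in rods and was at least 220-fold higher in progenitors than in rods, taking 3 UMIs over all rods as the limit that a count of 0 allows. It was not absent from P14 cones, with 3 to 9 UMIs per retina from 115 cones in all. Its group means in cones were 9.94 CPM in the wild type, 29.2 in heterozygotes and 22.8 in retinas labelled knockout. *Mcm6* was at 234 CPM in the progenitors and 1.25 in rods, a ratio of 188.

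Other members stayed well within reach of detection in rods. *Pold3*, a subunit of DNA polymerase delta, was at 38.5–45.7 CPM in the 5 P14 rod samples and at a mean of 66.9 in P0 primary progenitors, a ratio of 1.59. *Casp8ap2*, which is known for a role in histone mRNA production, was at 46.3–60.3 CPM in rods and 108 in progenitors, a ratio of 2.06. The clamp loader subunit *Rfc2* followed at a ratio of 2.81, the ubiquitin ligase gene *Ubr7* at 3.06, the helicase gene *Blm* at 3.14 and *Pola1*, the catalytic subunit of polymerase alpha, at 4.08. *Pold3* and *Casp8ap2* were also among the least graded members between P0 types, and *Pold3* was only 2.16-fold higher in primary progenitors than in RGCs, where the median member was 18.8-fold higher. The study's reads carry 3′ tags, so levels are compared here within a gene.

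**Figure D2:**
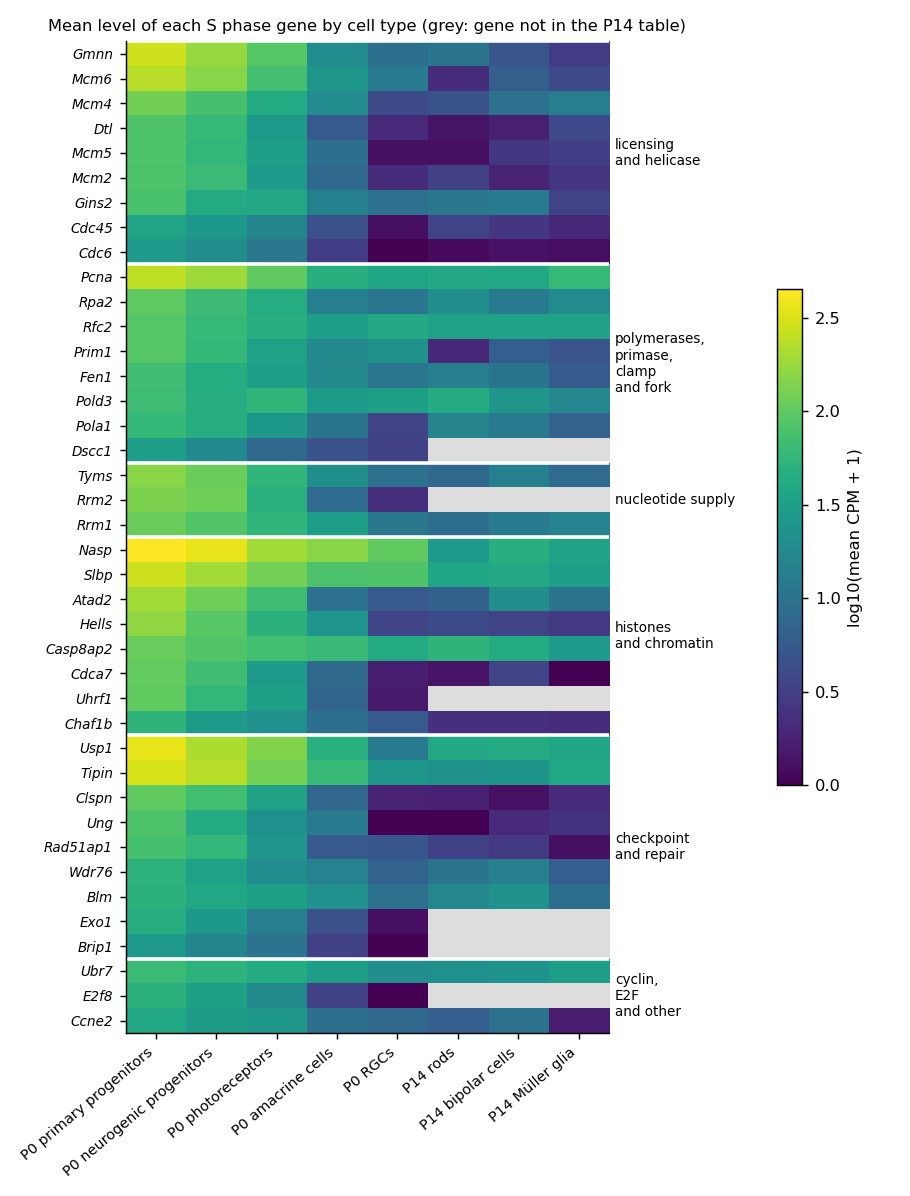
Mean level of each S phase gene, as log10(CPM + 1), in 5 P0 and 3 P14 cell types, with genes grouped by role and grey where a gene is not in the P14 table. *Mcm5*, *Dtl* and *Cdc6* have 3 UMIs or fewer in P14 rods while *Pold3*, *Rfc2*, *Pcna*, *Slbp* and *Casp8ap2* are at a mean of 32.1 CPM or more in rods.

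Between primary progenitors and photoreceptors at P0 all 40 members were higher in the progenitors, by a median of 2.73-fold. The steepest were *Dscc1*, part of the alternative clamp loader that acts in cohesion (29.1 against 7.15 CPM, 4.06-fold), *Ung* (3.95-fold), *Cdca7* (3.85-fold), the exonuclease *Exo1* (3.52-fold), *Uhrf1*, which maintains DNA methylation behind the fork (3.32-fold), and *Mcm6* (3.29-fold). The flattest were *Pold3* (66.9 against 54.7 CPM, 1.22-fold), *Ubr7* (1.499-fold), *Casp8ap2* (1.53-fold), cyclin E2 or *Ccne2* (1.54-fold), *Blm* (1.60-fold) and *Rrm1*, the large subunit of ribonucleotide reductase (1.99-fold). Of the members named between progenitors and rods, *Ung*, *Cdca7* and *Mcm6* were again at one end of the order, and *Pold3*, *Ubr7*, *Casp8ap2* and *Blm* at the other. *Mcm5*, *Dtl* and *Cdc6* were not among the steepest here, nor *Rfc2* and *Pola1* among the flattest. Both ratios share the level in P0 primary progenitors, so the 2 orders are not independent.

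Both progenitor types held all 40 members, at different levels. At P0 every member had a lower mean in neurogenic than in primary progenitors, with ratios of 0.518 to 0.866 and a median of 0.657. By the mean over all retinas *Rrm2*, the small subunit of ribonucleotide reductase, was closest to parity at 116 against 134 CPM (0.866), followed by the histone chaperone *Nasp* (0.812), *Ubr7* (0.812) and *Mcm2* (0.784). By group the ratio of *Rrm2* was 0.695 in the wild type, 0.789 in heterozygotes and 0.998 in retinas labelled knockout. In these last, neurogenic progenitors held 192 *Rrm2* UMIs in retina 1 and 119 in retina 2. The highest member was *Nasp* in the wild type (0.889) and *Cdc6* in heterozygotes (1.02). *Ung* was lowest at 42.0 against 81.0 CPM (0.518), next to the chromatin assembly factor *Chaf1b* (0.520), the helicase cofactor *Gins2* (0.521) and *Uhrf1* (0.559).

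In explants the values of this comparison differed by dose, with no test of that difference on the ratios. At 0 nM the members summed to 3304 ± 24.0 CPM (SD, n = 2) in neurogenic and 3211 ± 370 in primary progenitors, and 22 of the 40 had a higher mean in neurogenic progenitors, with a median ratio of 1.08. At 500 nM the sums were 2643 ± 474 and 3665 ± 237 CPM, 4 members were higher in neurogenic progenitors, and the median ratio was 0.720. At 5 and 50 nM 4 and 5 members were higher, with median ratios of 0.563 and 0.739.

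Averaged over all 8 explants, the ratio of neurogenic to primary progenitors had a median of 0.762 and ranged from 0.320 to 1.64. *Rrm2* was at the top, at 112 against 68.3 CPM (1.64), with the recombination factor *Rad51ap1* (1.28), the repressor *E2f8* (1.20) and *Blm* (1.19) next. *Ung* was lowest, at 27.7 against 86.7 CPM (0.320), with *Cdca7* at 0.331, *Cdc6* at 0.466 and *Mcm6* at 0.556. *Rrm2* was above 1 at every dose, from 1.26 to 2.82, and *Ung* below, from 0.251 to 0.463. Between pools, *Pcna*, the sliding clamp, was at a mean of 248 CPM in primary progenitors at P0 and 59.4 in explants, 35 of 40 members were higher at P0, and the median ratio was 1.39.

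Within primary progenitors the members differed in their relation to the G2/M genes. Cells were thinned to 3000 UMIs each and ranked by their UMIs of 41 genes of G2 and M phase, which were not among the members, and split into low, middle and high groups of equal size. At P0, with 2782 cells, the groups had median G2/M counts of 1, 7 and 45, and the members summed to 4050, 6152 and 3894 CPM. The sum was thus highest in the middle group, as was the level of 36 of the 40 single members. Since all 3 groups come from the same cells and libraries, these values are a description.

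*Ung* had the lowest ratio of high to low group, going from 123 CPM in the low group to 5.02 in the high group, a ratio of 0.0406. A base excision repair enzyme and not a helicase gene thus led this end. *Mcm2* went from 119 to 26.5 CPM (0.223), *Cdca7* from 152 to 44.4 (0.292) and *Mcm4* from 168 to 61.6 (0.368), and each was lower in the high group in 5 of 5 retinas. *Mcm2* and *Mcm4* encode helicase subunits that are loaded before S phase.

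*E2f8*, an E2F family member that represses E2F targets, went the other way, from 3.96 CPM in the low group to 71.7 in the high group, a ratio of 18.1. *Rrm2* went from 33.5 to 156 CPM (4.66), the helicase gene *Brip1* from 7.92 to 31.2 (3.94) and *Rad51ap1* from 27.4 to 79.2 (2.90), each higher in 5 of 5 retinas. Over all members, 18 were higher in the high group and 22 lower. Of the 9 members with an E2F word in the promoter window, 2 were higher and 7 lower. *Rrm2* and *E2f8* hold none, and neither do *Ung* and *Mcm2*, the members with the lowest ratios. Promoters were available for 30 of the 40 members, and a link between word and direction was not tested. The study's list of genes that rose along pseudotime, drawn from *Sstr2*-expressing neurogenic cells of the same samples, not from primary progenitors, and so not independent evidence, held 9 members, and 7 of them were higher in the high group.

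In explants the sum was highest in the high group. With 1466 cells and median G2/M counts of 0, 2 and 23, the members summed to 2345, 3428 and 4450 CPM, and 36 of 40 were higher in the high than the low group. As at P0, *Ung* had the lowest ratio (0.735), with *Mcm4* at 0.904, *Cdca7* at 0.947 and *Mcm6* at 0.948, and *E2f8* had the highest (19.1), with *Rad51ap1* at 17.2 and *Cdc45*, a helicase component, at 13.6. Across the 8 explants no member was lower in the high group in every one, where 15 members were in every P0 retina, and *Ung* was lower in 4. The groups of the 2 pools are not alike. The high group held cells with 3 to 83 G2/M UMIs in explants and 20 to 109 at P0, where the middle group held 2 to 27. *E2f8* and *Rad51ap1* rest on low counts, with 2.06 and 3.43 CPM in the low group.

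**Figure D3:**
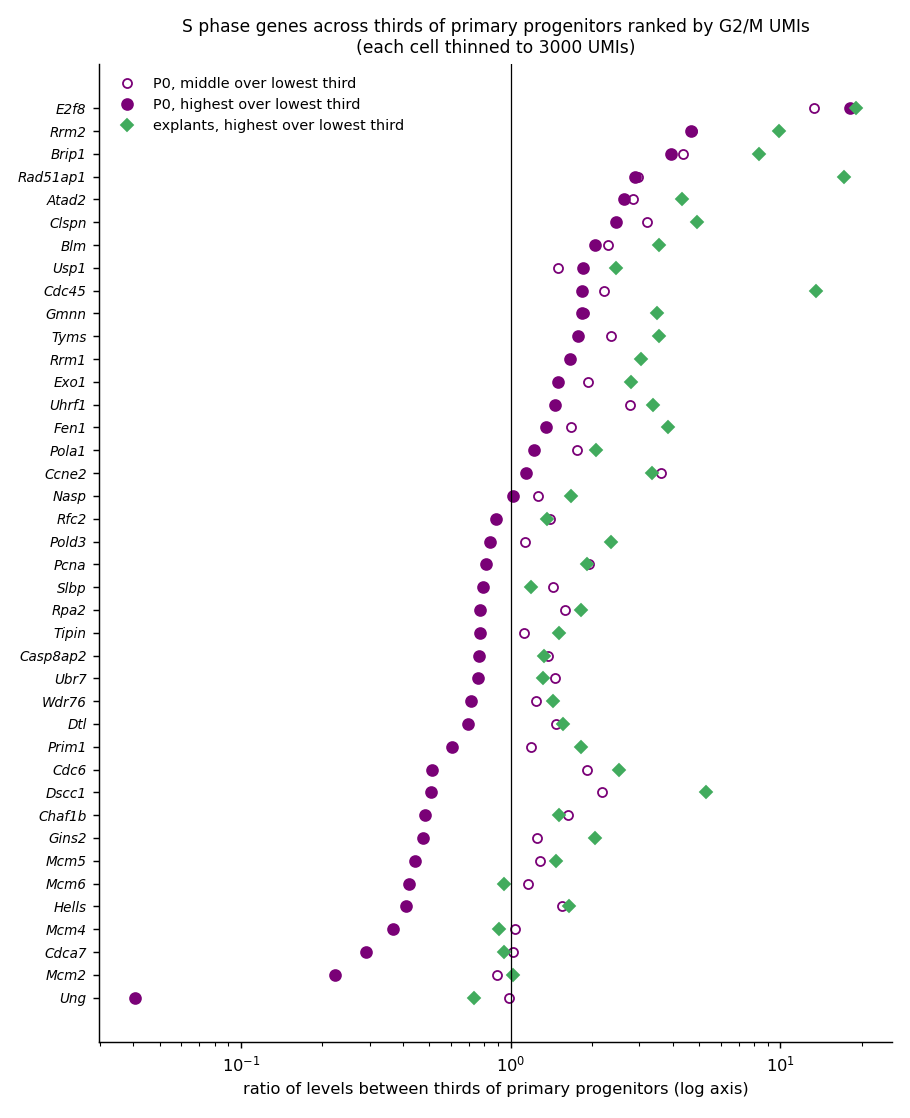
Ratio of the level of each S phase gene between groups of primary progenitors ranked by G2/M UMIs (log axis); filled purple points are the high over the low group and open points the middle over the low group at P0, and green diamonds the high over the low group in explants. *Ung* lies at 0.0406 and *E2f8* at 18.1 at P0, with most members above 1 in explants.

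Over single P0 primary progenitors the genes outside all lists that varied most like the summed members were *Dek*, a chromatin protein (Pearson's r = 0.472), *Ptma*, a histone-binding protein of growing cells (0.468), the tubulins *Tubb5* (0.449) and *Tuba1b* (0.376), the chaperone *Dnajc9* (0.352) and *Siva1* (0.350), over 2782 cells of 1 pool thinned to the same depth and centred per retina. Among genes of replication outside the members, *Dut* (0.530) and *Lig1* (0.480) were highest. The median r between pairs of members was 0.097 and the highest was 0.326, between *Pcna* and *Hells*. These counts are sparse, and the values rank genes only.

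The comparison of 500 with 0 nM asked whether the agonist changed the members in progenitors. In primary progenitors of explants no member was called (edgeR quasi-likelihood test on UMI sums per explant, adjusted p under 0.05, all 8 explants in the fit). Of 8514 genes tested, 27 were called (0.317%), 8 of them lens crystallin genes and 3 Y-linked genes, and 0 of 40 members were called with a smallest adjusted p of 0.271. At an unadjusted p under 0.05, 6 members were higher and 1 lower, where 4.47% and 4.16% of all genes were. The groups did not overlap for 16 members that were higher (22.8% of all genes) and 1 that was lower (14.9%), and 29 had a fitted change above 0 and 11 below (50.8% and 49.2% of all genes). The members had a median log2 fold change of 0.11 and all genes 0.01, while the G2/M genes, which vary with the same cycle, had 0.46. The part of sex makeup and of lens RNA in these values was not tested. Nothing in the labels says whether the explants of a dose came from separate embryos or how many retinas made up a sample. In primary progenitors the 0 nM samples held *Xist*, which the study tied to the sex of the animals, at 1033 and 844 CPM beside *Eif2s3y*. At P0 *Xist* was at 1.83–3.06 CPM in the retinas with *Eif2s3y* and at 1269 and 1275 in the others. Whether samples mix retinas of both sexes was not tested, and the p-values measure the spread between these samples.

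The highest fitted changes of members whose groups did not overlap were of *Brip1*, *Blm* and *Pola1*. *Brip1* was at 12.4 and 3.58 CPM at 0 nM, 13.1 and 12.2 at 5 nM, 19.8 and 16.7 at 50 nM and 14.0 and 21.4 at 500 nM, with a fitted log2 fold change of 0.98 ± 0.47 (SE, adjusted p = 0.565). *Blm* was at 20.4 and 12.5 CPM at 0 nM and 30.2 and 36.8 at 500 nM (0.92 ± 0.34, adjusted p = 0.395), and *Pola1*, which is X-linked, at 26.0 and 32.2 and at 62.6 and 42.1 (0.77 ± 0.28, adjusted p = 0.392). For these 3 the 500 nM samples lay above both 0 nM samples by the rule that named them. *Cdca7* was lower, at 87.1 and 75.1 CPM at 0 nM and 71.2 and 52.2 at 500 nM (-0.50 ± 0.20, adjusted p = 0.446), and *Uhrf1* (0.09) and *Tipin* (0.10), of the fork protection complex, were nearest to 0 among members whose groups did not overlap. With 1 explant left out, the fold change ranged from 0.51 to 2.24 for *Brip1* (2.24 without 0 nM explant 1), 0.69 to 1.36 for *Blm*, 0.49 to 1.11 for *Pola1* and -0.73 to -0.23 for *Cdca7*. *Brip1* had 11 and 2 UMIs at 0 nM, so its 2.24 rests on 2 UMIs at that dose. The fit without 500 nM explant 1 keeps only explant 2 at 500 nM, the sample with lens RNA (*Cryaa* at 1739 CPM). Without 500 nM explant 1, 241 of 9010 genes were called (2.67%), and 2 members with them, *Atad2* (adjusted p = 0.00514) and *Cdca7* (adjusted p = 0.0447).

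The other replication genes did not all stay out of the calls. Of 47 listed, 44 were tested and 1 was called, *Ccna2*, the cyclin A of S and G2 phase, with 65.6 and 78.7 CPM at 0 nM, 73.3 and 67.0 at 5 nM, 110 and 89.2 at 50 nM and 117 and 143 at 500 nM. Its log2 fold change was 0.83 ± 0.17 (adjusted p = 0.0101). The adjusted p was 0.540 without 0 nM explant 1, 0.0730 without 0 nM explant 2 and 0.243 without 500 nM explant 2.

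In neurogenic progenitors of explants the fitted changes leaned down, and again no member was called. Of 6072 genes tested 6 were called (0.0988%), and 0 of the 35 members tested were, with 5 members below the count filter. Among the 6 were *Xist* (log2 fold change 1.08) and the Y-linked *Eif2s3y* (-3.99), so sex makeup and dose cannot be told apart between 0 and 500 nM here either. At an unadjusted p under 0.05, 7 of 35 members were lower and 0 higher, where 2.87% and 2.37% of all genes were. The groups did not overlap for 15 members that were lower (16.9% of all genes) and 1 that was higher (18.7%), and 32 had a fitted change below 0 and 3 above (50.5% and 49.5% of all genes). The summed level was 3287 and 3321 CPM at 0 nM, 1796 and 2521 at 5 nM, 3099 and 2514 at 50 nM and 2978 and 2307 at 500 nM. The 6 treated explants lay below both untreated ones, and the values did not follow the order of dose. The median log2 fold change of the members was -0.36, but it was -0.73 without 500 nM explant 1 and -0.08 without 500 nM explant 2.

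*Hells*, a chromatin remodeller, was at 75.3 and 110 CPM at 0 nM and at 52.3 and 44.3 at 500 nM (-0.89 ± 0.29, adjusted p = 0.877). *Pcna* was at 73.3 and 48.2 CPM at 0 nM and at 41.8 and 31.0 at 500 nM (-0.83 ± 0.33, adjusted p = 0.902), and *Blm* at 41.6 and 51.6 and at 26.1 and 26.6 (-0.79 ± 0.43, adjusted p = 0.964). With 1 explant left out, the fold change ranged from -1.20 to -0.65 for *Hells*, -1.05 to -0.43 for *Pcna* and -0.97 to -0.65 for *Blm*. *Usp1*, which removes ubiquitin from the clamp, had a fold change of 0.08, *Tipin* -0.20 and *Nasp* -0.21. None of these passed the threshold. They were named from members whose groups did not overlap, so the 500 nM values lie on 1 side of both 0 nM values by selection.

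The 2 progenitor types were then set against each other in 1 model with each explant as a block, a test chosen after seeing these values. Of 7690 genes 10 were called (0.13%), and 1 of 40 members, *Atad2*, a chromatin ATPase that acts with E2F proteins. *Atad2* was at 104 and 59.0 CPM at 0 nM and 112 and 149 at 500 nM in primary progenitors, and at 125 and 131 at 0 nM and 73.2 and 75.3 at 500 nM in neurogenic progenitors. Between these doses, neurogenic progenitors held 13 and 42 *Atad2* UMIs from 38 and 137 cells at 5 nM. At 50 nM they held 40 and 39 UMIs from 46 and 95 cells, so the level did not follow the order of dose. The change in neurogenic minus that in primary progenitors was -1.35 ± 0.31 (SE, log2, adjusted p = 0.0457). It rested on single explants, with an adjusted p of 0.530 without 0 nM explant 2 and 0.723 without 500 nM explant 2. For the members as a group, 37 of 40 had a lower change in neurogenic progenitors, where 48.7% of all genes did, with a median difference of -0.51 against 0.01 over all genes. With both types summed, 0 of 40 members were called and the median was 0.004, where 0.252% of genes were called.

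**Figure D4:**
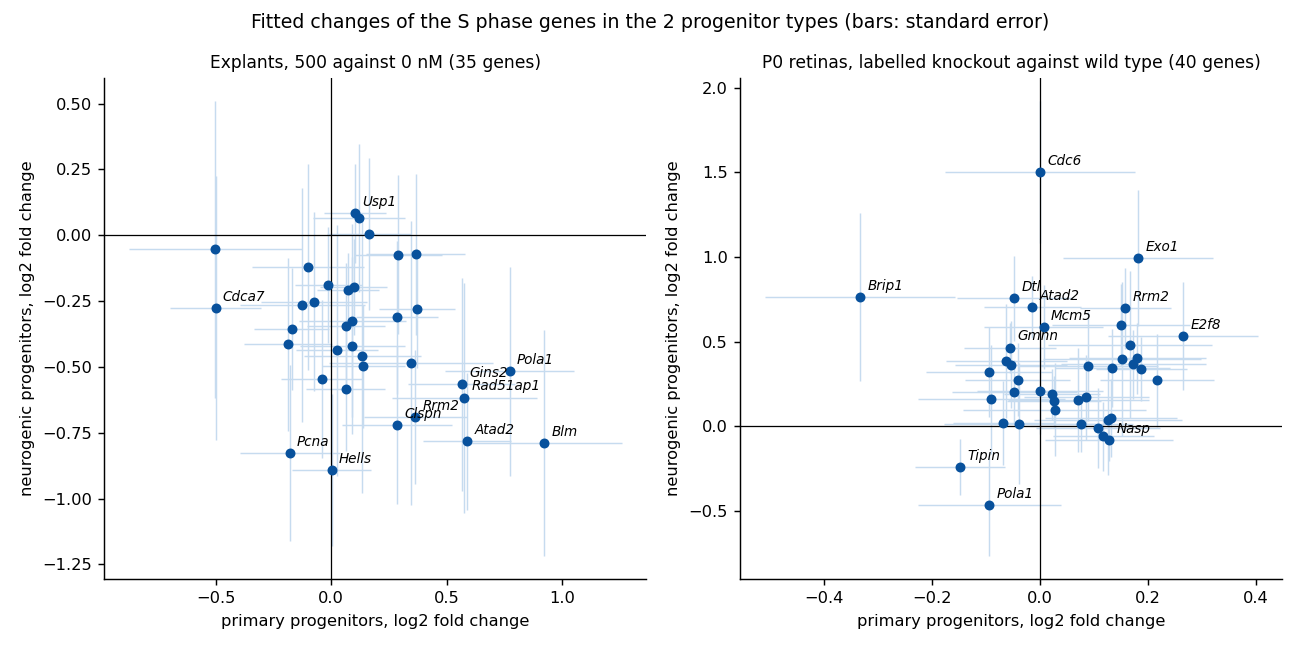
Fitted log2 fold changes of the S phase genes in primary (horizontal) and neurogenic (vertical) progenitors, for 500 against 0 nM in explants (left, 35 genes) and retinas labelled knockout against wild type at P0 (right, 40 genes); bars are standard errors. Most points lie below 0 on the vertical axis in explants and above 0 at P0, and no member passed the threshold in either cell type.

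At P0 the comparison of retinas labelled knockout with the wild type asked about loss of the receptor. In primary progenitors 3 of 11939 genes were called (0.0251%) and 0 of 40 members, with 0 members at an unadjusted p under 0.05, where 1.95% of genes were higher and 1.92% lower. The groups did not overlap for 20 members that were higher (38.2% of all genes) and 7 that were lower (28.9%), and 26 had a fitted change above 0 and 14 below (51.3% and 48.6% of all genes). The summed level was 4861 CPM in the wild type, 4725 and 4602 in heterozygotes and 4922 and 5240 in retinas labelled knockout, and the median log2 fold change was 0.05. *E2f8* (0.27 ± 0.14), *Ung* (0.22 ± 0.11) and *Tyms*, the thymidylate synthase (0.19 ± 0.08), had the highest fold changes of members whose groups did not overlap, and *Brip1* (-0.33 ± 0.18), *Tipin* (-0.15 ± 0.08) and *Pold3* (-0.09) the lowest, all with an adjusted p of 0.993. There was 1 wild type retina, so its spread was taken from the other groups. The Y-linked *Eif2s3y* was at 50.9–58.7 CPM in the wild type, heterozygote 2 and retina 1 of those labelled knockout and below 0.6 in the other 2, so the group labelled knockout differed in sex makeup from the wild type.

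In neurogenic progenitors at P0 the fitted changes leaned up, and 0 of 40 members were called where 3 of 8984 genes were (0.0334%). At an unadjusted p under 0.05, 8 members were higher and 0 lower, where 2.52% and 2.38% of all genes were. The groups did not overlap for 27 members that were higher (33.6% of all genes) and 3 that were lower (32.7%), and 35 had a fitted change above 0 and 5 below (50.1% and 49.9% of all genes). *Cdc6* was at 8.43 CPM in the wild type, 21.3 and 20.3 in heterozygotes and 25.7 and 22.8 in retinas labelled knockout, from 10 UMIs in the wild type and 26 and 23 in the last group (1.503 ± 0.42, adjusted p = 0.803). *Exo1* was at 16.0 CPM, at 23.2 and 21.9 and at 41.5 and 22.8 (0.99 ± 0.40, adjusted p = 0.929), and *Atad2* at 86.0, at 105 and 100 and at 154 and 128 (0.70 ± 0.18, adjusted p = 0.655). For *Cdc6* and *Atad2* the heterozygotes lay between the wild type and the retinas labelled knockout.

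*Rrm2* was at 94.4 CPM in the wild type, 92.8 and 87.0 in heterozygotes and 190 and 118 in retinas labelled knockout (0.70 ± 0.24, adjusted p = 0.929), and *Brip1* had a fold change of 0.76 ± 0.50. *Pola1* (-0.46), *Tipin* (-0.24) and *Nasp* (-0.08) were lowest. With 1 retina other than the wild type left out, the fold change ranged from 0.30 to 1.01 for *Rrm2*, 0.22 to 1.17 for *Brip1* and 0.49 to 1.37 for *Exo1*. The range was -0.65 to -0.29 for *Pola1*, -0.46 to -0.04 for *Tipin* and -0.15 to -0.0006 for *Nasp*. The median of the members was 0.30, and 0.16 without retina 1 of those labelled knockout, which was highest for *Rrm2*, *Exo1* and *Atad2*. Without the other one, 38 of 8893 genes were called (0.427%) and 2 members, *Rrm2* (adjusted p = 0.000106) and *Atad2* (adjusted p = 0.00962), with retina 1 as the only one of its group.

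The difference between progenitor types at P0 called 8 of 11622 genes (0.0688%) and 0 of 40 members. *Atad2* had a difference of 0.71 (adjusted p = 0.302), with the sign opposite to that in explants, and 7 members were higher in neurogenic progenitors at an unadjusted p under 0.05, where 2.72% of all genes were. Without retina 1 of those labelled knockout 3 members were higher and 2 lower at that threshold. Without retina 2 there was 1 member called, *Rrm2* (0.87, adjusted p = 0.0218), among 17 of 11463 genes (0.148%). With both types summed, 0 of 40 members were called where 0.0244% of genes were, and the median was 0.08. Of the other replication genes, 0 of 47 tested in primary and 0 of 46 in neurogenic progenitors were called.

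In P0 photoreceptors and P14 rods the genotype labels did not order the samples. The summed level in P0 photoreceptors was 1691 CPM in the wild type, 2616 and 1901 in heterozygotes and 1650 and 1745 in retinas labelled knockout, and in P14 rods it was 471, 420 and 443, and 426 and 463 in the same order. In photoreceptors of explants it was 659 and 771 CPM at 0 nM and 779 and 910 at 500 nM. In P0 amacrine cells the summed level was 774 CPM in the wild type, 942 ± 47.0 (SD) in heterozygotes and 871 ± 6.85 in retinas labelled knockout. The wild type was also lowest in P0 RGCs (444 CPM), P14 amacrine cells (328) and P14 cones (457). These sums rest on few cells, with 13, 15 and 34 cells of these types in the wild type. The other retinas held 12 to 26, 4 to 23 and 11 to 34 cells in the same order. By group means the wild type was highest in P14 rods (471 against 431 in heterozygotes and 444 in retinas labelled knockout). It was also highest in P14 Müller glia (434 against 408 and 401). No test was run in these types.

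**Figure D5:**
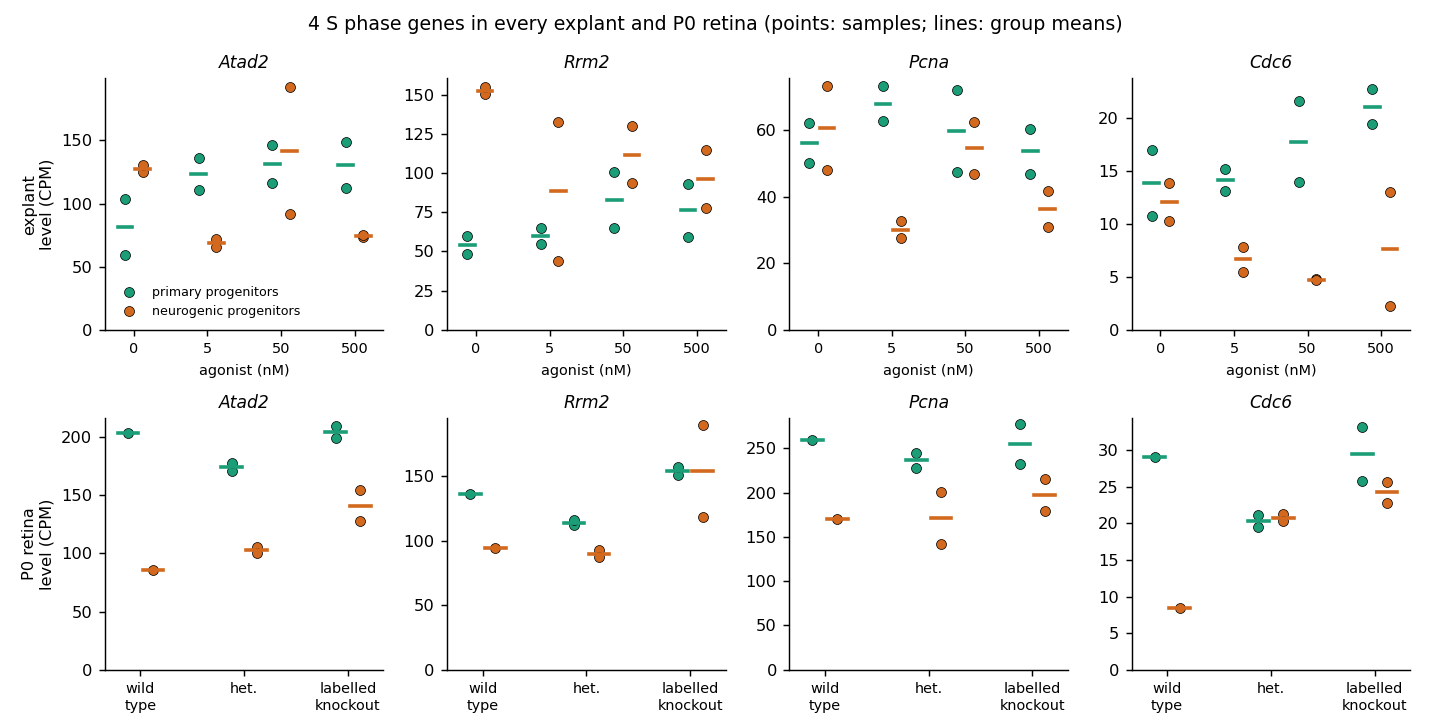
Levels (CPM) of *Atad2*, *Rrm2*, *Pcna* and *Cdc6* in every explant by dose (top) and every P0 retina by genotype label (bottom); green points are primary and orange points neurogenic progenitors, and lines are group means. *Atad2* in neurogenic progenitors is at 125 and 131 CPM without agonist and at 73.2 and 75.3 at 500 nM, and the values do not follow the order of dose.

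The study's pseudotime lists, which were drawn from *Sstr2*-expressing neurogenic cells of these explants and P0 retinas and so are not independent evidence there, held 11 members, and none passed the threshold. Its list of genes that rose along pseudotime held 9 of them, and the study described that list as rising with Sstr2 signalling. The study's high group was 500 nM, wild type and heterozygous cells, set against all others, unlike the comparisons here. The counts here pool the lists. In primary progenitors of explants 9 of the 11 members had a fitted change above 0 and 2 below, from -0.04 (*Prim1*, of the primase) to 0.58 (*Rad51ap1*). In neurogenic progenitors of explants 10 were tested, 1 above 0 and 9 below, from -0.72 (*Clspn*, a checkpoint mediator) to 0.08 (*Usp1*). At P0 the counts were 7 above and 4 below in primary progenitors, from -0.15 (*Tipin*) to 0.27 (*E2f8*), and 10 above and 1 below in neurogenic progenitors, from -0.24 (*Tipin*) to 0.76 (*Dtl*).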

How the data were processed

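Single cells were tagged by MULTI-seq and captured with 10x Chromium 3′ chemistry. Per the labels, the authors used Cell Ranger 3.1.0, Seurat 3 and mm10 (GRCm38). The authors deposited 1 table of raw UMI counts for each pool, with natural log SCT values beside it, and tables of cells with their sample barcode and cell type, and neither replicate numbers nor columns of comparisons were in these tables. The members and lists were chosen with earlier results of these data known.

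For each explant or retina, the counts of all cells of a type were added up, and these sums were tested with edgeR 4.0.16 in R 4.3.3 (TMM, filterByExpr, quasi-likelihood, Benjamini-Hochberg adjustment over all genes tested, threshold 0.05), which was tested on simulated data. DESeq2 1.42.0, limma 3.58.1 on log2(CPM + 1) of summed SCT values, other filters and scalings, a dose trend, doublet removal (scanpy 1.11.5 Scrublet, top 5% of cells, which took out 280, 266 and 122 cells of the explant, P0 and P14 pools) and leaving out each sample were the alternatives. The test of the difference between progenitor types and the fit with both types summed were added after seeing the data. Nothing states how many retinas make up a sample.

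Cells were thinned to 3000 UMIs for shares, G2/M groups and correlations, and shallower cells were left out. The log2 fold changes named are the 3 highest and 3 lowest of members with groups that did not overlap, the ratios named the 4 or 6 highest and lowest among members with at least 50 UMIs (4 for G2/M groups), the 6 genes most correlated with the members, genes of the replication lists past the threshold, and members of the study's pseudotime lists. *Atad2* and *Rrm2* were added after their values were seen because they passed the threshold in the added test or when 1 sample was left out. The limit of 3 UMIs covers counting error only, and the ± values are SDs over samples or standard errors of the fits.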

Additional observations from a re-analysis of the deposited data

Results flagged for a closer look

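*Atad2* was the member whose change from 0 to 500 nM differed between the progenitor types by a test of the difference itself. The test was added after seeing the values, and sex makeup and dose cannot be told apart between the 0 and 500 nM explants. The change in neurogenic minus primary progenitors was -1.35 (log2, SE 0.31, adjusted p = 0.0457, edgeR), with a direction of higher in primary and lower in neurogenic progenitors. With the explants at 5 and 50 nM included, *Atad2* in neurogenic progenitors did not follow the order of dose. Over the fits that left out 1 explant of either group, the difference ranged from -1.92 to -1.05, and it missed the threshold without 0 nM explant 2 or 500 nM explant 2.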

How the results depend on the processing

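In the 4 comparisons no member was called by edgeR, with either scaling or filter, DESeq2, limma, doublet removal, the dose trend or the comparison with all other retinas, and DESeq2 gave no adjusted p for 31 members in explant primary progenitors. The number of all genes called moved more. In explant primary progenitors it was 27, and 4 with DESeq2, 67 with no filter on low counts, 9 with limma, 45 for a dose trend and 6 to 241 with 1 explant left out. In explant neurogenic progenitors it was 6, and 0 with DESeq2 and 4 to 7 with 1 left out. In P0 primary progenitors it was 3, and 6 with DESeq2, 6 with no filter, 9 with limma, 1 for the retinas labelled knockout against all others and 4 to 26 with 1 left out. In P0 neurogenic progenitors it was 3, and 6 with no filter, 15 with limma, 1 against all others and 3 to 39 with 1 left out. The cause was not tested. With 1 sample left out, 0 to 2 members were called in explant primary and in P0 neurogenic progenitors and 0 in the other comparisons. *Atad2* and *Cdca7* were called in explant primary progenitors without 500 nM explant 1 (adjusted p = 0.00514 and 0.0447). The median log2 fold change of members ranged from 0.08 to 0.21, from -0.73 to -0.080, from 0.02 to 0.11 and from 0.16 to 0.40 in the 4 comparisons in this order. The number of members called for a difference between progenitor types ranged from 0 to 1 in explants and at P0. *Atad2* in P0 primary progenitors, at -0.01, changed sign with limma (0.024), against all others (0.14) and without retina 2 of those labelled knockout (0.034), from -0.062 to 0.034 over the fits with 1 left out. Thinning moved the shares of cells with at least 3 member UMIs from 86.6 to 80.8% (explant primary progenitors), 98.8 to 95.0% (P0 primary progenitors), 64.0 to 45.8% (P0 photoreceptors) and 22.4 to 16.9% (P14 rods). No paired analysis was possible because the cell tables carry sample barcodes and no replicate numbers. Depth limited the low genes, with 10 to 26 UMIs of *Cdc6* per P0 retina in neurogenic progenitors.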

Other observations

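Outside the member list, 2 cell cycle genes were among the 6 called in explant neurogenic progenitors, and they were chosen here after their values were seen. The 6 also held *Xist* (log2 fold change 1.08) and the Y-linked *Eif2s3y* (-3.99), and the part of sex makeup in these values was not tested. In these cells *Eif2s3y* was at 45.5 and 37.9 CPM at 0 nM and 0 and 46.8 at 5 nM. It was at 38.5 and 42.2 CPM at 50 nM and 0 and 4.43 at 500 nM. *Hist1h1b*, a replication-dependent linker histone, was at 1095 and 1215 CPM at 0 nM, 501 and 968 at 5 nM, 755 and 729 at 50 nM and 497 and 443 at 500 nM, with a log2 fold change of -1.30 ± 0.15 (SE, edgeR adjusted p = 2.72e-07). *Cdkn1c*, a cyclin-dependent kinase inhibitor of cells leaving the cycle, was at 69.3 and 65.4 CPM at 0 nM, 22.03 and 62.4 at 5 nM, 9.62 and 9.37 at 50 nM and 5.23 and 6.64 at 500 nM (-3.44 ± 0.52, adjusted p = 0.000102). Both were past the threshold with every explant left out in turn and with limma, and neither with DESeq2, which gave an adjusted p of 0.289 for both. In primary progenitors of explants 3 of 40 tested G2/M genes were called at 500 nM, and 37 had a fitted change above 0. They were *Cenpf*, a centromere protein (0.73 ± 0.14, adjusted p = 0.00236), the proliferation marker *Mki67* (0.84 ± 0.16, adjusted p = 0.00236) and the mitotic kinesin *Kif23* (1.12 ± 0.26, adjusted p = 0.0372). None of the 3 was called without 0 nM explant 1 (adjusted p = 0.149, 0.302 and 0.165) or without 0 nM explant 2 (0.186, 0.0668 and 0.566), and without 500 nM explant 2 only *Cenpf* was (0.00482).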
